A study of Mus musculus with 10 samples.

Results

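The 42 genes described here encode proteins that copy DNA, make deoxynucleotides or start S phase, and they were measured in 2 mesenchymal mouse breast cancer cell lines under 5 conditions. They were chosen by gene symbol with earlier results of these data known, so their counts beside all genes tested are descriptions. All 42 had a row among the 18103 gene rows of the counts table, and all 42 passed the filter on low counts that kept 13149 genes. By role they fall into 10 genes of origin licensing, 6 of helicase activation, 6 of polymerases and primase, 5 of the sliding clamp and its loader, 4 of single-strand binding and Okazaki fragment joining, 5 of deoxynucleotide supply and uracil removal, 3 of chromatin copying and 3 drivers of the passage from G1 to S phase.

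RNA was sequenced from 10 libraries, 2 for each of 5 groups, all taken as harvested at day 7. The titles of the 2 MTΔECad control libraries name no day. Py2T-LT cells, a mesenchymal line, were taken as controls, under a MEK inhibitor, and under a combination of that inhibitor with BMP2, a secreted bone morphogenetic protein. MTΔECad cells, mesenchymal breast cancer cells that lack E-cadherin, were sampled as controls and after rosiglitazone, a drug that activates PPARγ. Per the labels' protocols, control cells, also called untreated here, received DMSO medium, and the usual doses were 200 ng/ml for recombinant BMP2, 40 µM for PD98059 (the MEK inhibitor) and 2 µM for rosiglitazone. The sample labels give no dose. The protocol for the cancer cells describes adding rosiglitazone after BMP2. Whether the medium of the Py2T-LT cells, that of the combination included, held rosiglitazone is not known here. BMP2 without the MEK inhibitor, and BMP2 in MTΔECad cells, were not analysed here. Each line is 1 line, so a difference between lines has no replicate line behind it, and the 2 libraries per group come from 2 independent experiments.

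Before S phase, the origin recognition complex, CDC6 and CDT1 load rings of MCM2-7 onto DNA. CDC45 and GINS then join the rings to form the replicative helicase, and polymerases copy both strands with the help of a sliding clamp. Genes of this machinery are well-known targets of E2F transcription factors, which are held back by RB family proteins until cyclin E and its kinase partner act, so their transcripts are commonly read as a mark of cycling cells. In bulk RNA, fewer cycling cells and less RNA of a gene per cell cannot be told apart.

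Library totals were 14659987 to 17249199 counts. Levels are given as CPM, the counts of a gene in 1000000 counts of its library, with library sizes scaled by TMM to correct for composition, and 1 count was worth at most 0.0696 CPM. A gene rose or fell, in the words used here, if its Benjamini-Hochberg adjusted p in edgeR's quasi-likelihood test was below 0.05 over the 13149 genes, and each log2 change is given ± its standard error. The summed level of 6 mesenchymal markers was 7980 to 16192 CPM in all libraries. Of 6 epithelial markers, Krt8 (41.2 to 285 CPM) and Krt18 (74.6 to 403 CPM) were present in every library, Cldn4 reached 9.94 CPM, Epcam stayed below 1 CPM and Esrp1 had no count in 9 libraries. Cdh1, the gene of E-cadherin, was measured at 36.0 and 31.7 CPM in untreated Py2T-LT and 2.58 and 2.25 CPM in untreated MTΔECad cells, and a count over the whole gene does not show which exons were deleted. The markers listed for haematopoietic, endothelial and skeletal muscle cells, of which 7 of 13 had a row, summed to at most 7.17 CPM for any of these cell types.

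Promoter sequence was available for 35 of the 42 genes as RefSeq windows of 300 bases, from 250 before to 50 after a transcription start (build GRCm38.p6). An E2F motif was searched as TTTCCCGC, TTTCGCGC, TTTGCCGC or TTTGGCGC on both strands, and a cell cycle homology region (CHR), a motif known from genes of late cell cycle phases, as TTTGAA on both strands. An E2F motif stood in the windows of 14 of 35 genes (40.0%), compared with 498 of 10358 tested genes with a window (4.81%). It was present in 7 of 9 licensing genes and in 3 of 5 polymerase genes, and in none of the 5 genes of deoxynucleotide supply and uracil removal. A CHR motif stood in 4 of the 35 (11.4%), near the 14.4% of all tested genes. Of 23 genes of mitosis, 16 (69.6%) held a CHR motif and 1 an E2F motif, which is the opposite pattern. A match is a description of the letters and not a measured binding site, and a window without a match says only that these letters are not in it.
The following bases before the start, 5′ to 3′ on the strand of the gene, are shown for 4 genes that hold an E2F motif and had a log2 change below -1 with the combination, and for Tk1, which fell most and holds none. Capitals mark the motif matches, and bases of exons annotated in GENCODE M21 are left out. The Cdc6 and Uhrf1 stretches lie inside the annotated span of the gene, each before a start downstream of its outermost one. In Mcm5 and in the first match of Mcm6, matches on both strands overlap.
Mcm5, chr8:75109259-75109467, + strand: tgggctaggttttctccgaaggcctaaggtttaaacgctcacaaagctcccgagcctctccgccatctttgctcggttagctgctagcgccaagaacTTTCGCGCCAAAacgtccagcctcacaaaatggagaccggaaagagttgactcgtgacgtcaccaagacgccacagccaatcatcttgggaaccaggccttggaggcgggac
Mcm6, chr1:128359706-128359955, − strand: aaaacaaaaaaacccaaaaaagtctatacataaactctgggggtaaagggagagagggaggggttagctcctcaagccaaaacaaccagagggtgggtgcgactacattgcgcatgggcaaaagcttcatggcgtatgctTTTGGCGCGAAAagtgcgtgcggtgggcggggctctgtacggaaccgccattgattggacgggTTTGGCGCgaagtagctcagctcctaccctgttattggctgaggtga
Cdc6, chr11:98907982-98908150, + strand: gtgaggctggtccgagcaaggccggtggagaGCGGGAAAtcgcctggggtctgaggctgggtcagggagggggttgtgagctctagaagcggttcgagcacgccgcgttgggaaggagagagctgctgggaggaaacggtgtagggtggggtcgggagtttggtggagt
Uhrf1, chr17:56304063-56304312, + strand: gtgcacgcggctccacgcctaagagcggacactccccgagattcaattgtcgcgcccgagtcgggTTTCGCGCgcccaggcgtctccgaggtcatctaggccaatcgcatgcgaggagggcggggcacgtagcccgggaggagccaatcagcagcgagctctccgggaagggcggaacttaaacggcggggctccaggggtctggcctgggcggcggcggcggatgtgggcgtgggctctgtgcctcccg
Tk1, chr11:117826093-117826264, − strand: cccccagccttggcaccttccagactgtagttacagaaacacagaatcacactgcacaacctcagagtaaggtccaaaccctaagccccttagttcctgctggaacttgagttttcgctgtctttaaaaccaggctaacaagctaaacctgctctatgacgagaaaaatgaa

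**Figure D1:**
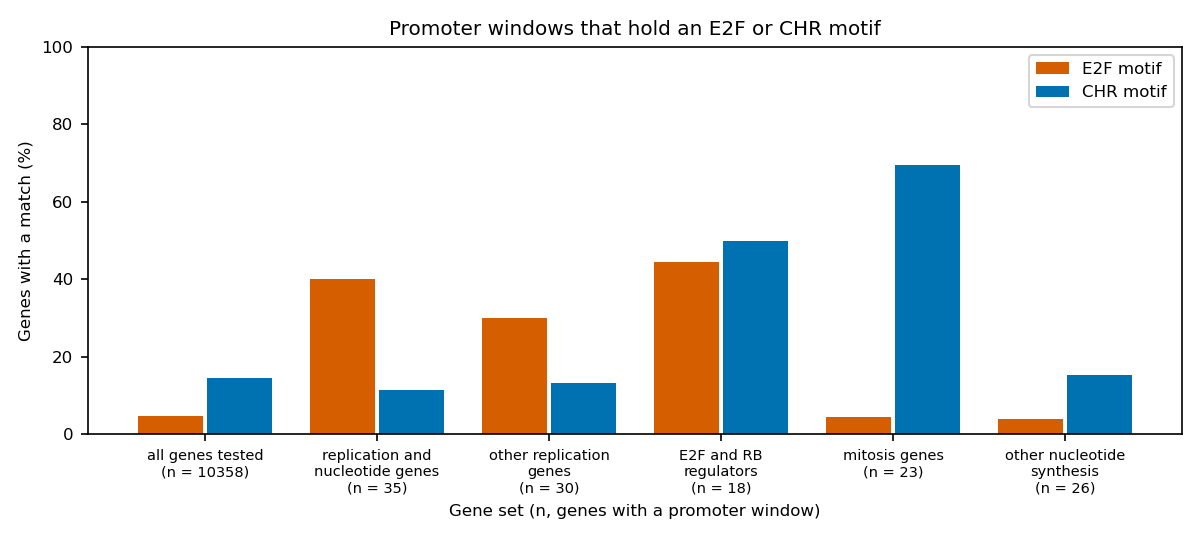
Share of genes (%, vertical axis) whose promoter window holds an E2F motif (orange) or a CHR motif (blue), for each gene set with its number of windows. The replication and nucleotide genes stand at 40.0% for E2F and 11.4% for CHR, and the mitosis genes at 4.35% and 69.6%.

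Summed over the 42 genes, the level was 1631 and 1542 CPM in the Py2T-LT controls, 1853 and 1772 CPM with the MEK inhibitor, and 923 and 938 CPM with BMP2 and the MEK inhibitor. It was 996 and 997 CPM in the MTΔECad controls and 833 and 802 CPM with rosiglitazone. The groups were thus ordered with the MEK inhibitor alone highest and rosiglitazone lowest, and the ranges of the 2 libraries did not overlap between any groups. In these sums abundant genes such as Rpa1 and Rrm1 weigh most. Of the 42, 16 share exon bases with another annotated gene. The largest overlaps, those of Fen1, Gins2 and Chaf1a, are given beside the gene. Ccne2 shares 20.3% of its transcript with Ints8, Rfc2 19.1% with Lat2 and Rfc5 17.8% with Wsb2, all on the opposite strand. Pole2 shares 14.4% with Gm49384 on the same strand, and the remaining overlaps are at most 13.4%.

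**Figure D2:**
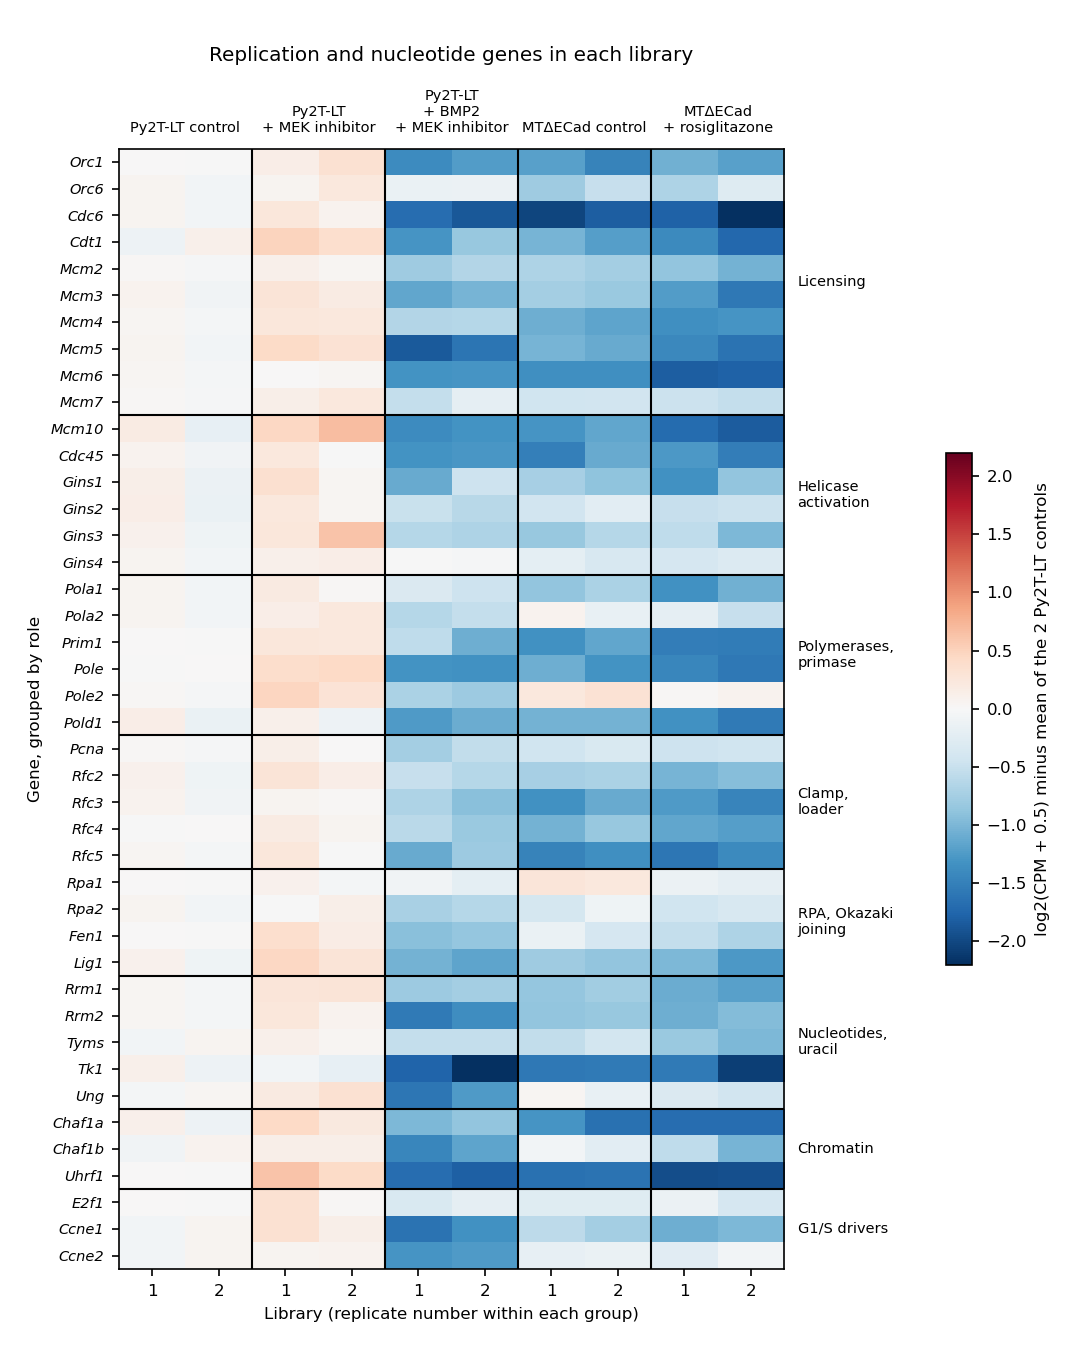
log2(CPM + 0.5) of each of the 42 genes (rows, grouped by role) in each of the 10 libraries (columns), minus the mean of the 2 Py2T-LT control libraries. Red is above and blue below those controls. The combination and both MTΔECad groups are blue in most rows, whereas Gins4, Orc6 and Rpa1 are pale with the combination and Rpa1 and Pole2 are red in the MTΔECad controls.

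The MEK inhibitor alone raised a few of the genes by a small amount. With it, 8 of 42 rose (Lig1, Mcm10, Mcm4, Mcm5, Pole, Pole2, Rrm1 and Uhrf1), beside 8.98% of all genes tested that rose and 7.52% that fell, and the median log2 change of the 42 was 0.18, beside 0.01 over all genes tested. None of the 42 fell in edgeR, none did so at an unadjusted p below 0.05, and none fell in DESeq2. The changes of the 8 were 0.25 to 0.58, the smallest in Mcm4 and the largest in Mcm10. In 28 of the 42 genes both libraries with the inhibitor lay above both controls, beside 28.9% of all genes tested. Uhrf1 passed the test under all 10 alternatives. The other 7 lost their call under 1 to 6 of them, among them Pole2 without Py2T-LT control replicate 1 (edgeR adjusted p = 0.0864). With DESeq2 5 of the 8 were left, and Lig1, Mcm4 and Pole2 lost their calls (DESeq2 adjusted p = 0.0859, 0.0511 and 0.151). With only the compared groups fitted, Mcm4 and Pole2 lost theirs (edgeR adjusted p = 0.0584 and 0.0710). With 1 library at a time left out, the median log2 change of the 42 was 0.14 to 0.24.

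The combination of BMP2 and the MEK inhibitor lowered nearly all of the 42 genes. Against the same Py2T-LT controls, 38 of 42 genes fell, beside 19.4% of all genes tested that fell and 19.1% that rose, and the median change was -0.86, beside 0.00. Both combination libraries lay below both controls in 41 of the 42 genes, beside 32.9% of all genes tested. None rose in edgeR, at an unadjusted p below 0.05 or in DESeq2. In 18 of the 42 genes the fall was larger than 1 on the log2 scale, beside 6.59% of all genes tested. The 4 genes that did not pass were Orc6, Gins4, Rpa1 and E2f1. Against the MEK inhibitor alone, 39 of 42 fell, beside 19.4% of all genes tested that fell and 17.9% that rose, with a median of -1.18. None rose in edgeR, at an unadjusted p below 0.05 or in DESeq2. This comparison cannot separate BMP2 from any rosiglitazone in the combination medium, whose presence is not known here. All 42 lay lower in both libraries, beside 33.9% of all genes tested. In that comparison 26 falls were larger than 1, beside 6.78% of all genes tested. Both comparisons use the same combination libraries, and the MEK inhibitor and combination groups share their controls. Of the 38 calls against controls, 33 held under all 10 alternatives. Gins1, Gins2 and Gins3 lost theirs without Py2T-LT control replicate 1 (edgeR adjusted p = 0.0777, 0.0895 and 0.0572), and Mcm7 and Gins1 without the first combination library (0.110 and 0.145). Without the second combination library Gins2, Gins3 and Pola1 lost theirs (0.0549, 0.0506 and 0.0567).

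Rosiglitazone lowered fewer genes, and by less. In MTΔECad cells 9 of 42 genes fell (Chaf1b, Fen1, Mcm3, Mcm5, Mcm6, Pola1, Rpa1, Rrm1 and Tyms), beside 5.26% of all genes tested that fell and 7.95% that rose, and the median change was -0.27, beside -0.02. The libraries lay lower without overlap in 28 of the 42, beside 28.6% of all genes tested. None rose in edgeR, at an unadjusted p below 0.05 or in DESeq2, and no fall was larger than 1, beside 0.441% of all genes tested. Mcm3, Mcm6 and Rpa1 passed under all 10 alternatives, the other 6 lost their call under 2 to 4 of them, and 4 genes were left without rosiglitazone replicate 2. Without MTΔECad control replicate 1, Chaf1b (edgeR adjusted p = 0.0842), Fen1 (0.396) and Mcm5 (0.0780) lost their calls, and without MTΔECad control replicate 2, Pola1 (0.173), Rrm1 (0.0748) and Tyms (0.175) did. Without rosiglitazone replicate 1, Pola1 lost its call (edgeR adjusted p = 0.195), and without rosiglitazone replicate 2, Chaf1b (0.152), Fen1 (0.267), Mcm5 (0.115), Rrm1 (0.0650) and Tyms (0.194) did.

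Untreated MTΔECad cells stood below untreated Py2T-LT cells in most of the genes. In this comparison of 2 lines, 33 of 42 genes were lower, beside 31.7% of all genes tested that were lower, and Rpa1 was higher, beside 29.3% that were higher. The median difference was -0.80, beside -0.03, 16 genes were lower by more than 1 on the log2 scale, beside 13.1% of all genes tested, and 37 were lower without overlap of libraries, beside 41.4%. Scaling by library totals alone shifted the median of all genes in this comparison to -0.16 and that of the 42 to -0.93, and Rpa1 then stood at 0.12 and was not called (edgeR adjusted p = 0.174). The calls for Fen1 and Gins4 were lost without Py2T-LT control replicate 1 (edgeR adjusted p = 0.124 and 0.127) or MTΔECad control replicate 2 (0.382 and 0.177), and that for Fen1 also without Py2T-LT control replicate 2 (0.0883).

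The summed level of adipocyte markers moved with the treatments as well. The summed level of Adipoq, Plin1, Fabp4, Cidec and Lep was 2.65 to 5.87 CPM in Py2T-LT controls, 168 to 202 CPM with the MEK inhibitor, 305 to 335 CPM with the combination, 22.5 to 25.8 CPM in MTΔECad controls and 1579 to 1768 CPM with rosiglitazone. All 5 had a row, and Lep had no count in the Py2T-LT libraries. Fabp4 made up most of the sum with rosiglitazone, at 1092 and 1039 CPM. Adipoq, Plin1, Fabp4 and Cidec were higher there than in controls, but Lep went from 6.96 and 6.32 CPM to 6.30 and 4.81 CPM. Plin1, Fabp4 and Cidec were higher with the combination than with the MEK inhibitor alone, but Adipoq went from 26.1 and 22.8 CPM to 20.9 and 21.6 CPM. The order of the groups by these markers differs from their order by the 42 genes, since the marker sum was highest with rosiglitazone and was raised by the MEK inhibitor alone. Their part in the replication results was not tested. Epithelial markers summed to 627 to 677 CPM in Py2T-LT controls, 572 to 654 CPM with the MEK inhibitor, 216 to 233 CPM with the combination, 273 to 285 CPM in MTΔECad controls and 360 to 393 CPM with rosiglitazone, nearly all of it from the keratins Krt8 and Krt18, and their part was not tested either.

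**Figure D3:**
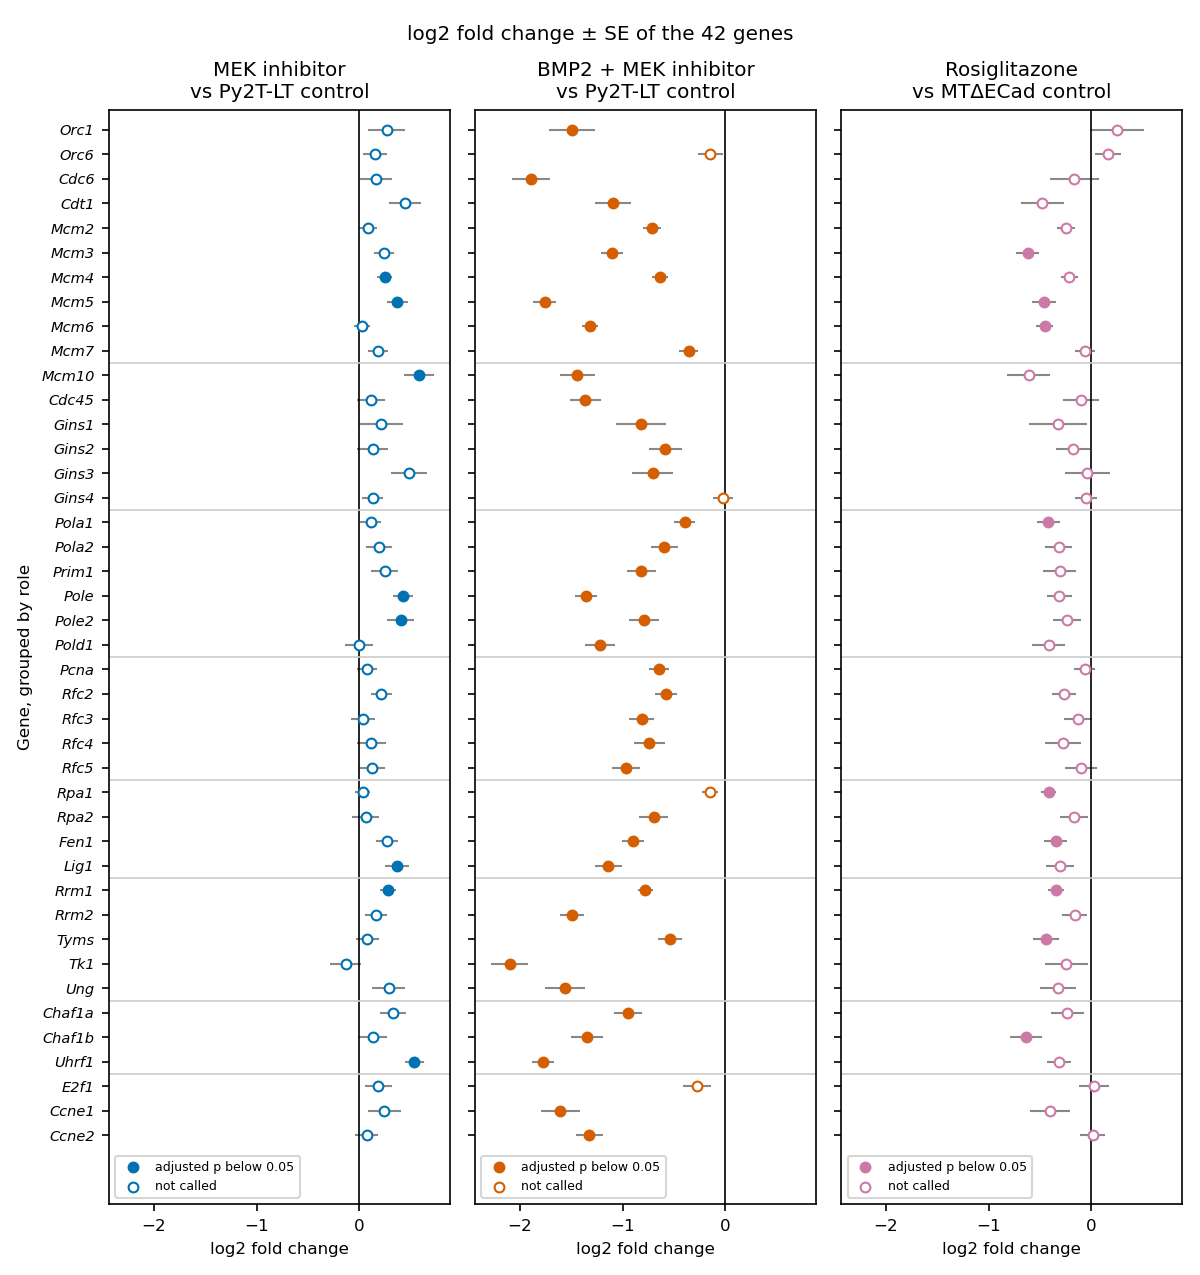
log2 fold change (horizontal axis) with its standard error of the 42 genes, grouped by role, for the MEK inhibitor and for the combination against Py2T-LT controls and for rosiglitazone against MTΔECad controls. Filled points passed the test, 8, 38 and 9 in the 3 panels, and the points of the combination reach -2.10 for Tk1.

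Among the licensing factors, those that load the helicase fell further than the small subunit of the complex that marks origins. Cdc6 (chr11:98907709-98923942), an ATPase that helps load MCM2-7, stood at 15.8 and 14.6 CPM in Py2T-LT controls, 18.2 and 15.9 CPM with the MEK inhibitor and 4.42 and 3.78 CPM with the combination. The combination libraries lay far below the other 4, with a change of -1.89 ± 0.19 (edgeR adjusted p = 4.4e-08). In the other line Cdc6 stood at 3.34 and 3.94 CPM in controls and 4.07 and 2.41 CPM with rosiglitazone, which is -2.05 ± 0.19 in untreated MTΔECad cells against Py2T-LT controls and the largest difference of the 42 between the lines. The rosiglitazone libraries lay on either side of their controls. Cdt1, the partner of CDC6 in loading, stood at 12.01 and 14.2 CPM in Py2T-LT controls, 18.5 and 17.1 CPM with the MEK inhibitor and 5.02 and 7.15 CPM with the combination, and the 3 groups did not overlap. It changed by -1.09 ± 0.18 with the combination and by 0.44 ± 0.16 with the MEK inhibitor, which did not pass (edgeR adjusted p = 0.0603). Its levels were 6.19 and 5.32 CPM in MTΔECad controls and 4.66 and 3.58 CPM with rosiglitazone.

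Orc1, the largest subunit of the origin recognition complex, stood at 5.73 and 5.69 CPM in Py2T-LT controls, 6.40 and 7.29 CPM with the MEK inhibitor and 1.87 and 2.15 CPM with the combination. The combination lowered it, log2 change -1.49 ± 0.22 (edgeR adjusted p = 1.33e-05), whereas with 2.23 and 1.75 CPM in MTΔECad controls and 2.49 and 2.201 CPM with rosiglitazone it did not pass for rosiglitazone (0.25 ± 0.26). Orc6, the smallest subunit, was one of the 4 genes that did not pass with the combination, at 40.1 and 36.7 CPM in Py2T-LT controls, 40.1 and 45.2 CPM with the MEK inhibitor and 34.5 and 34.9 CPM with the combination. Its combination libraries lay just below the controls, a change of -0.15 ± 0.12 (edgeR adjusted p = 0.366), and against the MEK inhibitor alone the change was -0.30 ± 0.12 (0.0552). That last value passed under 4 of 10 alternatives, with adjusted p down to 0.0130 when only the compared groups were fitted. Orc6 was lower in MTΔECad cells, at 22.2 and 26.9 CPM in MTΔECad controls and 23.9 and 31.3 CPM with rosiglitazone, a difference of -0.64 ± 0.12 between the controls.

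The 6 subunits of the MCM2-7 ring all fell with the combination, but by unequal amounts. Mcm6 (chr1:128331575-128359705), the subunit with the most reads in Py2T-LT controls, stood at 115 and 109 CPM in Py2T-LT controls, 112 and 116 CPM with the MEK inhibitor and 44.5 and 45.4 CPM with the combination. With the MEK inhibitor it overlapped the controls, and the combination changed it by -1.32 ± 0.08 (edgeR adjusted p = 2.31e-11). Mcm5 (chr8:75109468-75128439) stood at 54.03 and 49.2 CPM in Py2T-LT controls, 69.4 and 64.2 CPM with the MEK inhibitor and 13.9 and 16.5 CPM with the combination. It was the member of the ring that moved most in both directions, by 0.37 ± 0.10 with the MEK inhibitor (edgeR adjusted p = 0.0121) and by -1.76 ± 0.11 with the combination (4.84e-11). The smallest fall was that of Mcm7, at 76.5 and 74.2 CPM in Py2T-LT controls, 82.4 and 88.4 CPM with the MEK inhibitor and 52.03 and 65.5 CPM with the combination. Its change was -0.36 ± 0.10 (edgeR adjusted p = 0.00502), and its first combination library lay lower than the second.

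Mcm2 stood at 89.7 and 85.7 CPM in Py2T-LT controls, 95.2 and 90.5 CPM with the MEK inhibitor and 50.6 and 56.2 CPM with the combination. Mcm3 stood at 64.3 and 57.9 CPM in Py2T-LT controls, 74.6 and 69.6 CPM with the MEK inhibitor and 27.2 and 29.7 CPM with the combination. Mcm4 stood at 101 and 95.9 CPM in Py2T-LT controls, 117 and 116 CPM with the MEK inhibitor and 62.7 and 63.8 CPM with the combination. In all 3 the combination libraries lay below every other Py2T-LT library, with changes of -0.72 ± 0.09, -1.10 ± 0.11 and -0.64 ± 0.08 in that order. Mcm4 also rose with the MEK inhibitor, by 0.25 ± 0.08 (edgeR adjusted p = 0.0296), a call lost with DESeq2 and with only the compared groups fitted. In MTΔECad cells, rosiglitazone lowered Mcm3 from 36.2 and 34.6 CPM to 25.7 and 20.2 CPM, Mcm5 from 24.99 and 23.7 to 18.9 and 16.4 CPM and Mcm6 from 43.4 and 43.8 to 31.3 and 32.2 CPM. The changes were -0.62 ± 0.11, -0.46 ± 0.12 and -0.46 ± 0.09 (edgeR adjusted p = 0.000459, 0.00839 and 0.000619), the first among the 2 largest falls of the 42 with rosiglitazone. The other subunits did not pass there, Mcm2 going from 54.9 and 52.3 CPM to 47.7 and 42.4 CPM, Mcm4 from 46.7 and 43.9 to 38.5 and 39.5 CPM and Mcm7 from 55.3 and 55.9 to 54.4 and 52.3 CPM.

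Because long transcripts give more reads, subunits were compared per kb of their longest principal transcript. Per kb, the highest of the 6 MCM subunits exceeded the lowest by a factor of 2.52 in Py2T-LT controls, 1.98 with the MEK inhibitor, 4.41 with the combination, 2.61 in MTΔECad controls and 3.45 with rosiglitazone. Mcm5 was the lowest in each of the 5 groups. Mcm6 was the highest in Py2T-LT controls and with the MEK inhibitor, at 38.5 and 39.1 CPM per kb, and Mcm7 in the other 3 groups, at 19.8, 18.8 and 18.01 CPM per kb. The log2 change with the combination was -1.76 ± 0.11 for Mcm5 and -0.36 ± 0.10 for Mcm7. The ratio itself was not tested.

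**Figure D4:**
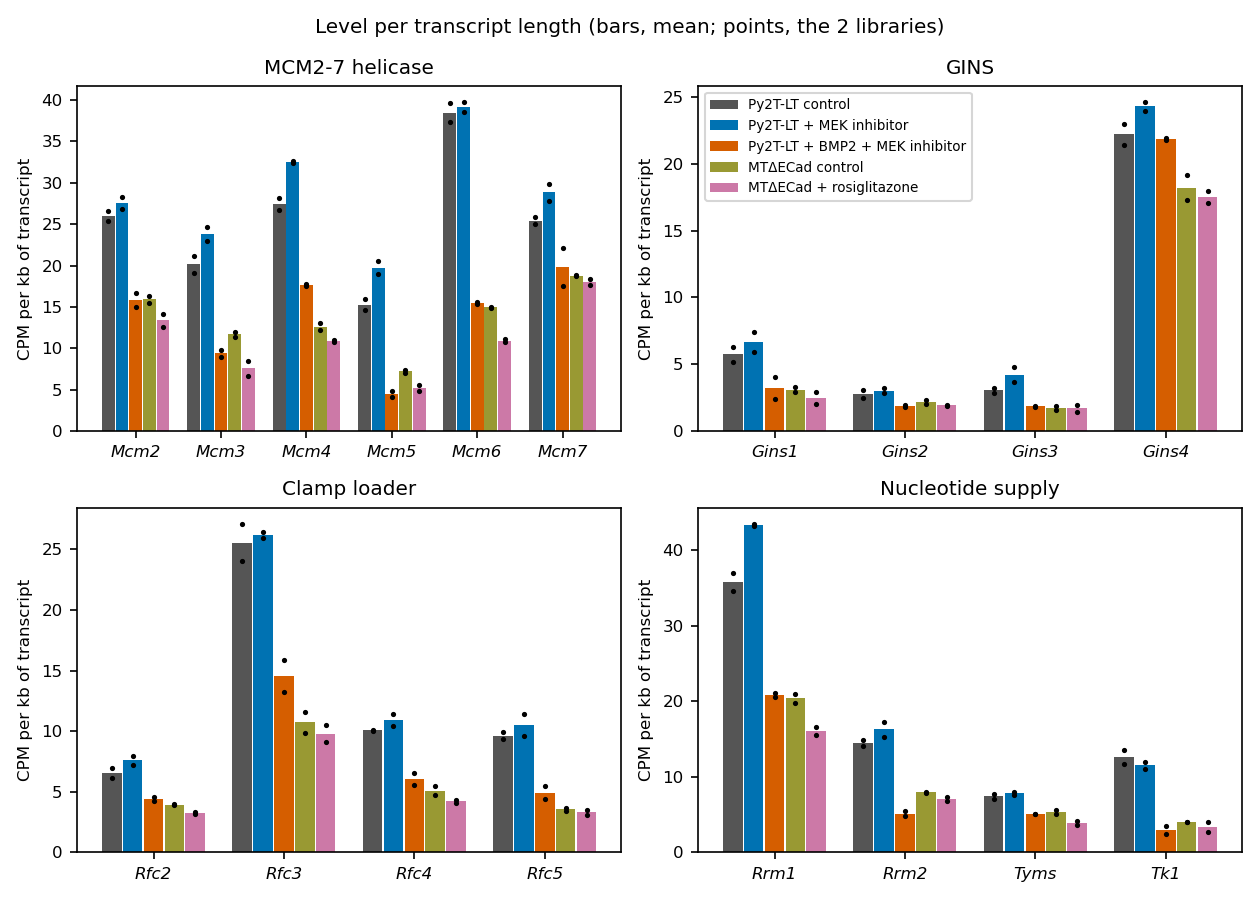
Level per kb of transcript (CPM per kb, vertical axis, linear from 0) of the subunits of the MCM2-7 ring, of GINS, of the clamp loader and of the nucleotide enzymes in the 5 groups. Bars are means and points the 2 libraries. Mcm5 is the lowest MCM subunit in each group, and Gins4 the highest GINS subunit.

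Of the 6 activators of the helicase, 5 fell with the combination. Mcm10, which helps to switch the loaded helicase on, stood at 14.6 and 11.2 CPM in Py2T-LT controls, 17.8 and 20.9 CPM with the MEK inhibitor and 4.62 and 4.88 CPM with the combination. The 3 groups did not overlap. The gene rose with the MEK inhibitor, log2 change 0.58 ± 0.15 (edgeR adjusted p = 0.00732), and fell with the combination, log2 change -1.44 ± 0.17 (7.21e-07). Its levels were 4.94 and 5.51 CPM in MTΔECad controls and 3.61 and 3.23 CPM with rosiglitazone, and the change with rosiglitazone, -0.61 ± 0.21, did not pass (0.0584). Cdc45, a part of the active helicase, stood at 21.4 and 18.996 CPM in Py2T-LT controls, 23.9 and 19.9 CPM with the MEK inhibitor and 7.77 and 7.97 CPM with the combination. Only the combination separated from the controls, by -1.36 ± 0.16 (edgeR adjusted p = 3.78e-07). In MTΔECad cells it stood at 6.75 and 9.14 CPM in controls and 8.13 and 6.74 CPM with rosiglitazone, with overlapping libraries.

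The one that did not pass was Gins4, 1 of the 4 GINS subunits. Gins4 (chr8:23226610-23237668), the GINS subunit with the most reads, stood at 31.1 and 28.9 CPM in Py2T-LT controls, 32.4 and 33.2 CPM with the MEK inhibitor and 29.6 and 29.4 CPM with the combination. Its combination libraries lay between the control libraries, and its change was -0.02 ± 0.10 (edgeR adjusted p = 0.879). It was slightly lower in MTΔECad cells, at 25.8 and 23.3 CPM in MTΔECad controls and 23.02 and 24.3 CPM with rosiglitazone. Gins1 stood at 6.84 and 5.62 CPM in Py2T-LT controls, 8.08 and 6.41 CPM with the MEK inhibitor and 2.61 and 4.36 CPM with the combination. Gins2 stood at 11.8 and 9.69 CPM in Py2T-LT controls, 12.6 and 11.01 CPM with the MEK inhibitor and 7.50 and 6.86 CPM with the combination. Gins3 stood at 8.13 and 7.12 CPM in Py2T-LT controls, 9.18 and 12.1 CPM with the MEK inhibitor and 4.75 and 4.59 CPM with the combination. All 3 fell with the combination, log2 changes -0.82 ± 0.24, -0.59 ± 0.16 and -0.71 ± 0.20, which are the calls named above that single libraries end. In MTΔECad cells Gins1 stood at 3.55 and 3.13 CPM in controls and 2.16 and 3.16 CPM with rosiglitazone. Gins2 stood there at 7.86 and 9.01 CPM in controls and 7.41 and 7.56 CPM with rosiglitazone. Gins3 stood there at 4.04 and 4.76 CPM in controls and 4.98 and 3.58 CPM with rosiglitazone. Their changes with rosiglitazone were -0.33 ± 0.28, -0.18 ± 0.17 and -0.04 ± 0.22, none past the test (edgeR adjusted p = 0.561, 0.602 and 0.966). Gins2 shares 70.7% of its transcript with exons of Gse1 on the opposite strand, so its counts may hold reads of that gene. Per kb, Gins4 exceeded the lowest GINS subunit by a factor of 8.05 in Py2T-LT controls and 11.9 with the combination.

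All 6 genes of polymerases and primase fell with the combination. Pola1, the catalytic subunit of polymerase α that extends primers, had the most reads of them, at 68.1 and 62.6 CPM in Py2T-LT controls, 74.9 and 66.4 CPM with the MEK inhibitor and 52.1 and 47.4 CPM with the combination. It changed least, by -0.39 ± 0.10 (edgeR adjusted p = 0.00405). It also fell with rosiglitazone, from 35.4 and 40.2 CPM to 25.7 and 30.9 CPM, log2 change -0.42 ± 0.11 (edgeR adjusted p = 0.0128). Pole, the catalytic subunit of the leading-strand polymerase ε, stood at 39.4 and 39.5 CPM in Py2T-LT controls, 51.9 and 53.95 CPM with the MEK inhibitor and 15.5 and 15.3 CPM with the combination. The 3 groups lay clearly apart, with 0.42 ± 0.10 for the MEK inhibitor (edgeR adjusted p = 0.00455) and -1.36 ± 0.11 for the combination (2.25e-09), the largest change of the 6. Pole levels were 18.5 and 15.5 CPM in MTΔECad controls and 14.4 and 12.997 CPM with rosiglitazone.

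Pole2, the second subunit of polymerase ε, stood at 11.3 and 10.8 CPM in Py2T-LT controls, 15.5 and 13.8 CPM with the MEK inhibitor and 6.63 and 6.16 CPM with the combination. It rose with the MEK inhibitor, log2 change 0.40 ± 0.13 (edgeR adjusted p = 0.0405) and fell with the combination, log2 change -0.79 ± 0.15. Pole2, like Rpa1, lay the other way from most of the 42 between lines, since at 13.2 and 13.96 CPM in MTΔECad controls and 11.3 and 11.7 CPM with rosiglitazone its MTΔECad controls lay above the Py2T-LT controls, a difference of 0.29 ± 0.13 that did not pass (edgeR adjusted p = 0.0643). Pold1, the catalytic subunit of the lagging-strand polymerase δ, stood at 21.9 and 17.9 CPM in Py2T-LT controls, 21.4 and 18.4 CPM with the MEK inhibitor and 8.04 and 9.07 CPM with the combination. The MEK inhibitor left it among the controls and the combination changed it by -1.21 ± 0.15 (edgeR adjusted p = 7.42e-07). Its levels were 9.33 and 9.39 CPM in MTΔECad controls and 7.61 and 6.40 CPM with rosiglitazone. Pola2, the accessory subunit of polymerase α, stood at 21.8 and 19.995 CPM in Py2T-LT controls, 23.1 and 24.6 CPM with the MEK inhibitor and 13.3 and 14.3 CPM with the combination. Prim1, the catalytic subunit of primase, stood at 26.6 and 25.99 CPM in Py2T-LT controls, 31.3 and 31.1 CPM with the MEK inhibitor and 17.7 and 12.2 CPM with the combination. Their changes with the combination were -0.60 ± 0.13 and -0.82 ± 0.14. Between untreated lines the pair differed, Pola2 standing at 22.1 and 18.7 CPM in MTΔECad controls and 18.1 and 14.6 CPM with rosiglitazone and Prim1 at 10.1 and 11.6 CPM in MTΔECad controls and 8.79 and 8.73 CPM with rosiglitazone. Prim1 was thus lower in MTΔECad controls than in Py2T-LT controls, log2 difference -1.27 ± 0.15, while Pola2 overlapped.

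The sliding clamp and the 4 small subunits of its loader all fell with the combination. Pcna (chr2:132249286-132253180), the clamp that tethers polymerases to DNA, stood at 43.4 and 42.1 CPM in Py2T-LT controls, 46.97 and 43.1 CPM with the MEK inhibitor and 25.2 and 29.2 CPM with the combination. Only the combination lay apart from the controls, by -0.65 ± 0.10 (edgeR adjusted p = 2.15e-05). Pcna levels were 31.4 and 33.8 CPM in MTΔECad controls and 30.9 and 31.5 CPM with rosiglitazone, and rosiglitazone overlapped its controls. Rfc5 had the largest fall of the loader, -0.97 ± 0.13, from 27.8 and 26.1 CPM in controls and 31.98 and 26.8 CPM with the MEK inhibitor to 12.3 and 15.2 CPM. Rfc2 stood at 34.7 and 30.6 CPM in Py2T-LT controls, 39.9 and 35.99 CPM with the MEK inhibitor and 22.7 and 21.05 CPM with the combination. Rfc3 stood at 35.7 and 31.6 CPM in Py2T-LT controls, 34.8 and 34.1 CPM with the MEK inhibitor and 20.9 and 17.4 CPM with the combination. Rfc4 stood at 12.3 and 12.4 CPM in Py2T-LT controls, 14.02 and 12.8 CPM with the MEK inhibitor and 8.04 and 6.80 CPM with the combination. In each of the 4 the combination libraries were the lowest of the Py2T-LT cells, with -0.58 ± 0.11 for Rfc2, -0.81 ± 0.12 for Rfc3 and -0.74 ± 0.15 for Rfc4. In MTΔECad cells Rfc2 stood at 19.3 and 19.9 CPM in controls and 15.9 and 16.8 CPM with rosiglitazone. Rfc3 stood there at 13.02 and 15.3 CPM in controls and 13.8 and 11.97 CPM with rosiglitazone. Rfc4 stood there at 5.78 and 6.70 CPM in controls and 5.31 and 5.02 CPM with rosiglitazone, and Rfc5 at 9.47 and 10.3 CPM in MTΔECad controls and 8.66 and 9.83 CPM with rosiglitazone. All 4 loader genes were lower in MTΔECad controls than in Py2T-LT controls, from -0.74 ± 0.11 for Rfc2 to -1.44 ± 0.14 for Rfc5. With rosiglitazone the changes ran from -0.10 ± 0.15 for Rfc5 to -0.27 ± 0.18 for Rfc4, and none of the 4 was called (edgeR adjusted p from 0.166 to 0.783). Per kb, Rfc3 was the highest of the 4 in each group.

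Single-strand binding was split between its subunits. Rpa1 (chr11:75300259-75348454), the large subunit of replication protein A and the most abundant of the 42 by reads in every group but the MEK inhibitor, where Rrm1 had more, stood at 157 and 154 CPM in Py2T-LT controls, 167 and 152 CPM with the MEK inhibitor and 148 and 134 CPM with the combination. The combination libraries lay just below the rest, with a change of -0.15 ± 0.08 that did not pass (edgeR adjusted p = 0.145). In MTΔECad cells it stood at 187 and 184 CPM in controls and 142 and 136 CPM with rosiglitazone. There rosiglitazone lowered it, log2 change -0.42 ± 0.08 (edgeR adjusted p = 0.000576), and it was the one gene of the 42 called higher in untreated MTΔECad than in untreated Py2T-LT cells, log2 difference 0.25 ± 0.08 (0.00789), a call lost with library totals alone. Rpa2, the middle subunit, stood at 16.9 and 15.3 CPM in Py2T-LT controls, 16.02 and 17.5 CPM with the MEK inhibitor and 9.64 and 10.2 CPM with the combination. The combination lowered Rpa2, log2 change -0.70 ± 0.14 (edgeR adjusted p = 0.000318). Rpa2 levels were 12.2 and 14.96 CPM in MTΔECad controls and 11.7 and 12.5 CPM with rosiglitazone, with overlap.

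Lig1, the ligase that seals Okazaki fragments, stood at 29.8 and 26.1 CPM in Py2T-LT controls, 38.3 and 34.1 CPM with the MEK inhibitor and 13.3 and 12.2 CPM with the combination. It rose with the MEK inhibitor, log2 change 0.37 ± 0.12 (edgeR adjusted p = 0.0331), and fell with the combination, log2 change -1.14 ± 0.13 (2.89e-07). Its levels were 16.1 and 15.02 CPM in MTΔECad controls and 13.8 and 11.3 CPM with rosiglitazone. Fen1, the nuclease that trims the fragments, stood at 40.9 and 40.2 CPM in Py2T-LT controls, 52.4 and 45.4 CPM with the MEK inhibitor and 21.1 and 22.3 CPM with the combination. It changed by -0.90 ± 0.11 with the combination. With rosiglitazone it fell, log2 change -0.35 ± 0.11 (edgeR adjusted p = 0.0401), from 36.7 and 31.4 CPM to 28.2 and 25.2 CPM. Exons of Gm10143, an antisense RNA, cover 80.4% of the Fen1 transcript, and without known strand use the reads of both cannot be told apart.

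Of the enzymes that supply deoxynucleotides, the 2 subunits of ribonucleotide reductase, which makes deoxynucleotides from ribonucleotides, fell by different amounts. Rrm1, the large subunit, stood at 148 and 138 CPM in Py2T-LT controls, 173 and 174 CPM with the MEK inhibitor and 82.3 and 84.4 CPM with the combination. It rose with the MEK inhibitor, log2 change 0.28 ± 0.07 (edgeR adjusted p = 0.0118) and fell with the combination, log2 change -0.78 ± 0.08 (4.22e-08). Rrm2, the small subunit made in S phase, stood at 32.7 and 31.1 CPM in Py2T-LT controls, 37.9 and 33.6 CPM with the MEK inhibitor and 10.5 and 12.1 CPM with the combination. Its change with the combination was -1.49 ± 0.12 (edgeR adjusted p = 1.75e-09). Per kb, Rrm1 exceeded Rrm2 by a factor of 2.46 in Py2T-LT controls, 2.66 with the MEK inhibitor and 4.05 with the combination, a shift that was not tested. In MTΔECad cells Rrm1 stood at 78.997 and 84.1 CPM in controls and 66.4 and 62.03 CPM with rosiglitazone, and Rrm2 at 17.2 and 17.7 CPM in MTΔECad controls and 14.95 and 16.2 CPM with rosiglitazone. Rosiglitazone lowered Rrm1, log2 change -0.34 ± 0.08 (edgeR adjusted p = 0.00408), and for Rrm2 the change of -0.16 ± 0.12 did not pass.

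Tk1 (chr11:117815519-117826087), the thymidine kinase of the salvage route, stood at 19.6 and 16.9 CPM in Py2T-LT controls, 17.3 and 15.9 CPM with the MEK inhibitor and 5.02 and 3.55 CPM with the combination. Its fall with the combination, -2.10 ± 0.18 (edgeR adjusted p = 7.14e-09), was the largest of the 42 against controls, and with the MEK inhibitor its libraries overlapped the controls at -0.13 ± 0.15, against the direction of most of the 42. It stood at 5.78 and 5.82 CPM in MTΔECad controls and 5.84 and 3.92 CPM with rosiglitazone. Tyms, which makes thymidylate, stood at 22.3 and 24.6 CPM in Py2T-LT controls, 25.4 and 24.05 CPM with the MEK inhibitor and 16.1 and 16.1 CPM with the combination. It fell less, log2 change -0.54 ± 0.12 (edgeR adjusted p = 0.000863), and also fell with rosiglitazone, from 16.01 and 17.6 CPM to 13.1 and 11.6 CPM, log2 change -0.45 ± 0.13 (0.0201). Its processed pseudogene Tyms-ps has a row of its own with 8 to 16 counts in a library. Ung, which removes uracil from DNA, stood at 7.45 and 7.94 CPM in Py2T-LT controls, 8.92 and 9.80 CPM with the MEK inhibitor and 2.21 and 2.97 CPM with the combination. The combination changed it by -1.56 ± 0.20 (edgeR adjusted p = 1.65e-06). Unlike most of the 42, Ung overlapped between untreated lines, at 7.93 and 6.82 CPM in MTΔECad controls and 6.10 and 5.64 CPM with rosiglitazone.

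The 3 genes that copy chromatin all fell with the combination. Uhrf1 (chr17:56303337-56323486), which binds newly copied hemimethylated DNA and brings in the maintenance methyltransferase, stood at 54.6 and 53.4 CPM in Py2T-LT controls, 83.9 and 72.7 CPM with the MEK inhibitor and 16.5 and 15.2 CPM with the combination. It was the second largest riser of the 42 with the MEK inhibitor, log2 change 0.54 ± 0.09 (edgeR adjusted p = 0.000259), and fell with the combination, log2 change -1.77 ± 0.10 (1.34e-11). Against the MEK inhibitor alone its change of -2.31 ± 0.10 was the largest of the 42. It was also low in MTΔECad cells, at 16.9 and 17.1 CPM in MTΔECad controls and 13.6 and 13.7 CPM with rosiglitazone. Chaf1a, the large subunit of the histone chaperone CAF-1, stood at 29.3 and 24.8 CPM in Py2T-LT controls, 36.6 and 31.2 CPM with the MEK inhibitor and 13.4 and 14.6 CPM with the combination. Chaf1b, the middle subunit, stood at 17.4 and 19.7 CPM in Py2T-LT controls, 20.4 and 20.3 CPM with the MEK inhibitor and 6.495 and 8.02 CPM with the combination. The changes with the combination were -0.95 ± 0.13 and -1.35 ± 0.16. In MTΔECad cells the pair parted, Chaf1a standing at 10.7 and 8.33 CPM in controls and 8.07 and 8.05 CPM with rosiglitazone and Chaf1b at 17.7 and 15.6 CPM in MTΔECad controls and 12.5 and 8.87 CPM with rosiglitazone. Chaf1a was lower in untreated MTΔECad than in untreated Py2T-LT cells, log2 difference -1.51 ± 0.14, whereas Chaf1b did not pass (-0.16 ± 0.15) and then showed the largest fall of the 42 with rosiglitazone, -0.64 ± 0.15 (edgeR adjusted p = 0.00672). Per kb, Chaf1b exceeded Chaf1a by a factor of 1.98 in Py2T-LT controls and 5.04 in MTΔECad controls. Exons of Ubxn6 on the opposite strand cover 48.6% of the Chaf1a transcript.

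Of the drivers of S phase entry, both cyclins E fell while E2f1 did not pass. Ccne1 stood at 8.69 and 9.50 CPM in Py2T-LT controls, 11.6 and 9.97 CPM with the MEK inhibitor and 2.61 and 3.31 CPM with the combination. Ccne2 stood at 19.3 and 21.3 CPM in Py2T-LT controls, 21.2 and 21.5 CPM with the MEK inhibitor and 7.97 and 8.26 CPM with the combination. The combination libraries of both lay far below the rest, with -1.61 ± 0.19 and -1.32 ± 0.13 (edgeR adjusted p = 6.05e-07 and 3.87e-08). Ccne2 stood at 17.8 and 18.3 CPM in MTΔECad controls and 16.9 and 19.5 CPM with rosiglitazone, and its difference between untreated lines, -0.17 ± 0.12, did not pass (edgeR adjusted p = 0.219). Ccne1 stood at 5.92 and 5.20 CPM in MTΔECad controls and 4.07 and 4.33 CPM with rosiglitazone. E2f1, a transcription factor that activates these genes, stood at 15.3 and 15.1 CPM in Py2T-LT controls, 19.3 and 15.5 CPM with the MEK inhibitor and 11.9 and 13.2 CPM with the combination. It changed by -0.28 ± 0.14 with the combination against controls (edgeR adjusted p = 0.128) and by -0.46 ± 0.14 against the MEK inhibitor alone (0.0109), a call that was lost without MEK inhibitor replicate 1 (0.175) or the first combination library (0.0858). In MTΔECad cells E2f1 stood at 12.6 and 12.6 CPM in controls and 13.97 and 11.7 CPM with rosiglitazone, with overlap.

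Whether the combination in Py2T-LT cells and rosiglitazone in MTΔECad cells acted by different amounts was tested as the difference of the 2 log2 changes in the same model. The treatments as well as the lines differ here, so the 2 cannot be told apart. The fall was larger with the combination for 26 of 42 genes, beside 13.3% of all genes tested in that direction and 11.6% in the other, and the median difference was -0.60, beside -0.01. No gene of the 42 passed in the other direction in edgeR or in DESeq2, and 1 did at an unadjusted p below 0.05, Rpa1 at 0.27 ± 0.11. The largest differences were those of Tk1 (-1.85 ± 0.28), Orc1 (-1.74 ± 0.35), Cdc6 (-1.72 ± 0.31), Uhrf1 (-1.45 ± 0.16) and Ccne2 (-1.34 ± 0.18). Of the 26 calls 16 held under all 14 alternatives, those of Tk1, Orc1, Cdc6, Uhrf1 and Ccne2 among them, and 19 to 26 genes passed when 1 library at a time was left out. Pole2 was the least firm of the 26, with its call lost under 10 alternatives. For Pola1 the effects of the 2 treatments were -0.39 ± 0.10 and -0.42 ± 0.11, and their difference of 0.02 ± 0.15 did not pass. Tyms was similar in this, with -0.54 ± 0.12 and -0.45 ± 0.13 and a difference of -0.10 ± 0.17 that did not pass. Of the 9 genes lowered by rosiglitazone, 8 were also lowered by the combination, and Rpa1 was the exception. The combination lowered 38 of the 42, so most of any 9 would be among them, and this count is not read as a shared response.

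The members with and without an E2F motif overlapped in their changes. With the combination the median log2 change was -1.12 for the 14 genes with a motif, which ranged from -1.89 to -0.36, and -0.82 for the 21 without, which ranged from -2.10 to -0.15. In untreated MTΔECad against Py2T-LT cells the medians were -1.09 and -0.71. With the MEK inhibitor they were 0.25 and 0.15, and with rosiglitazone -0.31 and -0.27. These are descriptions without a test.

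Further genes of the same processes were read from lists by function. Their counts stand beside the shares of all genes tested that rose and fell, 8.98% and 7.52% with the MEK inhibitor, 19.1% and 19.4% with the combination, 7.95% and 5.26% with rosiglitazone, and 29.3% higher and 31.7% lower in untreated MTΔECad than Py2T-LT cells. Of 38 further replication genes, 22 fell and 1 rose with the combination, with a median of -0.41. Cdc7, the kinase that fires licensed origins, stood at 29.5 and 29.6 CPM in controls, 41.0 and 37.1 CPM with the MEK inhibitor and 8.504 and 9.13 CPM with the combination, changes of 0.40 ± 0.11 and -1.74 ± 0.12. Dscc1, a subunit of an alternative clamp loader, fell, log2 change -1.96 ± 0.32, and Pole3, the histone-fold subunit of polymerase ε, rose, log2 change 0.55 ± 0.13. The MEK inhibitor raised 6 of the 38, Exo1 and Mcm8 most, by 0.61 ± 0.13 and 0.61 ± 0.20. With rosiglitazone 2 fell, and the log2 change was -0.61 ± 0.10 for Dbf4 and -0.59 ± 0.17 for Clspn, a share near the 5.26% of all genes tested. Between untreated lines 22 were lower and 3 higher in MTΔECad cells.

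Of 30 further nucleotide genes, 17 fell and 4 rose with the combination. Samhd1, which breaks down deoxynucleotides, was one of those that rose, from 51.6 and 61.9 CPM in controls and 50.8 and 56.2 CPM with the MEK inhibitor to 246 and 245 CPM with the combination, a log2 change of 2.11 ± 0.09 (edgeR adjusted p = 8.61e-14). No combination library overlapped the other groups. In MTΔECad cells Samhd1 stood at 93.0 and 90.3 CPM in controls and at 78.2 and 83.9 CPM with rosiglitazone. Rrm2b, the ribonucleotide reductase subunit used outside S phase, did not pass against controls with the combination, at 0.27 ± 0.12 (edgeR adjusted p = 0.0811). After the MEK inhibitor 3 of the 30 rose and Tk2 fell, and with rosiglitazone Mthfd2 rose while Slc29a1 and Paics fell, shares near or below those of all genes tested in these comparisons. Between untreated lines 19 were lower and 5 higher in MTΔECad cells.

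Among 23 regulators of the E2F and RB pathway, 10 fell and 3 rose with the combination, the risers being a smaller share than the 19.1% of all genes tested. Mybl2, a transcription factor of the late cell cycle, went from 5.79 and 5.25 CPM to 1.14 and 1.34 CPM, a change of -2.14 ± 0.24. Rb1, the retinoblastoma protein that restrains E2F, rose from 75.5 and 103 CPM to 159.9 and 146 CPM, by 0.77 ± 0.12 (edgeR adjusted p = 0.000115), and its relative Rbl2 and the repressor E2f4 were the other 2 that rose. Of 7 CDK inhibitors 6 were tested. Cdkn2b rose with the combination from 104 and 93.5 CPM to 247 and 255 CPM, log2 change 1.35 ± 0.09, and Cdkn1b rose too, log2 change 0.63 ± 0.08, while Cdkn2c and Cdkn2d fell. Cdkn2b had no count in either MTΔECad control library. The MEK inhibitor raised 3 of the 23 regulators, a share near the 8.98% of all genes tested. It also raised 3 of the 6 inhibitors, Cdkn2b by 0.52 ± 0.09. With rosiglitazone Ccna2 and Tfdp2 fell among the regulators, and Cdkn2c among the inhibitors, which is too few to set against the 5.26% of all genes tested. Between untreated lines 14 of the 23 regulators were lower and 3 higher in MTΔECad cells. Of the 6 inhibitors 4 were lower and 2 higher, beside 31.7% lower and 29.3% higher of all genes tested.

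Of 8 other genes of chromatin copying 5 fell with the combination, led by Asf1b at -1.20 ± 0.16, and of 16 genes of the fork checkpoint and homologous repair 10 fell, led by Fanci at -1.61 ± 0.16. The MEK inhibitor raised 3 of each list, and with rosiglitazone 1 of each fell, Ezh2 and Fanci, which is too few to set against the 5.26% of all genes tested. Between untreated lines 6 and 12 were lower in MTΔECad cells, and 1 and 2 were higher, beside 31.7% lower and 29.3% higher of all genes tested.

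Genes of mitosis were taken as a list of a later cell cycle phase. After the MEK inhibitor 25 of 26 mitosis genes rose, with a median of 0.61, where the 42 had 8 and 0.18. With the combination all 26 fell, with a median of -1.23 against controls and -1.91 against the MEK inhibitor alone. With rosiglitazone 14 of 26 fell (median -0.44), and all 26 were lower in untreated MTΔECad than in untreated Py2T-LT cells (median -1.04). The difference between the 2 lists was not tested.

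**Figure D5:**
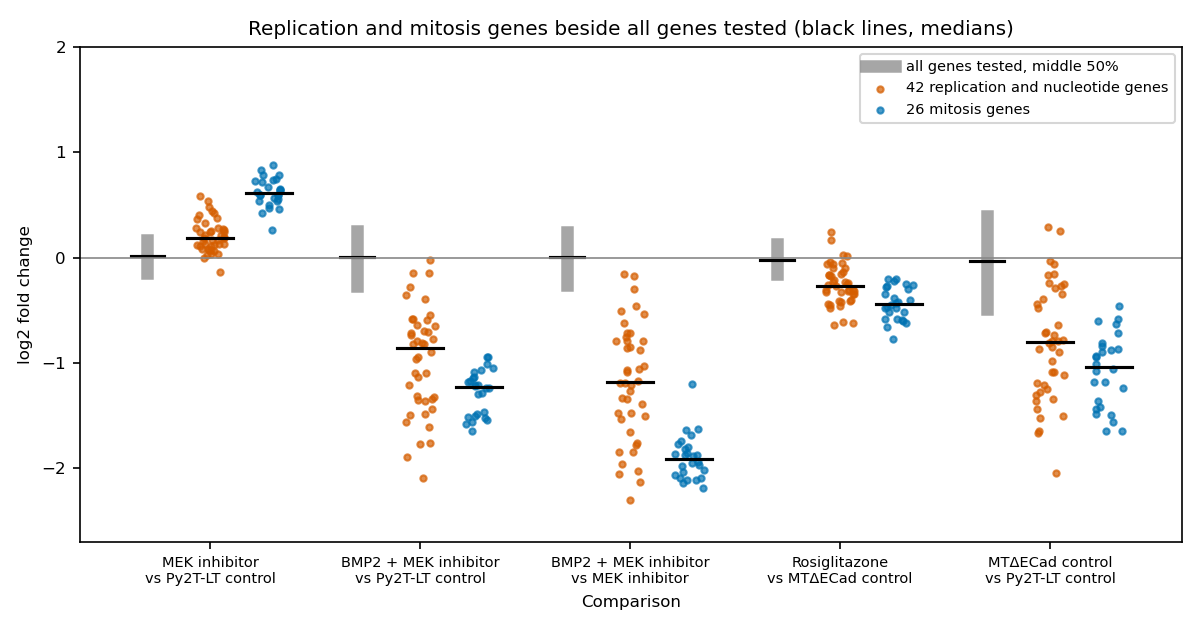
log2 fold changes (vertical axis) in the 5 comparisons (horizontal axis) of the 42 replication and nucleotide genes (orange) and of 26 mitosis genes (blue), with the middle 50% of all genes tested as a grey bar and medians as black lines. With the MEK inhibitor the mitosis genes have a median of 0.61 and the 42 genes one of 0.18, and both medians lie below 0 in the other 4 comparisons.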

How the data were processed

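RNA sequencing gave 10 libraries, 2 for each of 5 groups. The authors deposited raw read counts per NCBI gene ID, aligned with STAR to mm10 per the submitters' processing notes. No source used here gives the counting tool, its strand setting or its annotation, so reads of overlapping genes cannot be assigned by strand. The labels' protocols mention both poly-A RNA and a stranded total RNA kit. The protocols give 2 independent experiments, and p-values measure only the spread between libraries of a group. Of 18103 gene IDs, 18057 were matched to a symbol through RefSeq and 3 more through GENCODE, and the other 43 held 0.763% of the counts. Replicate libraries correlated at 0.993 to 0.995 across genes, and differed by more than sampling noise, most in the Py2T-LT controls. The mean chi-square per gene between the 2 libraries was 17.2 in that group, beside 5.50 to 7.88 in the others. All groups shared an estimate of the spread in the test, so p-values against the Py2T-LT controls may be too small.

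Counts were filtered with filterByExpr, scaled by TMM and tested in edgeR 4.0.16 (R 4.3.3, limma 3.58.1) by a quasi-likelihood fit with 1 mean per group over all 10 libraries (5 residual degrees of freedom). P-values were adjusted by Benjamini-Hochberg over 13149 genes, with a threshold of 0.05. The same fit was also run on simulated counts, and its outcome is not given here. The biological coefficient of variation was 7.07%. Standard errors are the log2 change divided by the square root of F. Levels per kb used the longest principal transcript of the gene. Alternatives were DESeq2 1.42.0, its size factors in edgeR, library totals alone, no filter, only the compared groups, a replicate block and each library left out.

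All 42 genes are described, by role. In each role the text gives every library for the most abundant gene, the gene that changed most and genes that did not pass or went against most others. The 42 genes and the other lists were chosen with earlier results of these data known, so their counts are descriptions. Promoter windows came from RefSeq (GRCm38.p6). A planned search of protein sequences was not done.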

Additional observations from a re-analysis of the deposited data

How the results depend on the processing

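Of 420 values of single genes under alternatives in each comparison, 379 kept direction and call for the MEK inhibitor, 411 for the combination against controls, 412 against the MEK inhibitor alone, 393 for rosiglitazone and 404 between untreated lines, and 535 of 588 did for the difference of effects. With library totals alone the 42 genes had a median of 0.22 with the MEK inhibitor and -0.93 between lines, where no gene was then higher, and the share of all called genes that were higher went from 54.4% to 62.4% for the MEK inhibitor, from 48.0% to 39.8% for the combination against it and from 48.1% to 36.9% between lines. DESeq2 called 5 genes higher with the MEK inhibitor. Leaving out 1 library at a time gave 2 to 8 such genes and medians of 0.14 to 0.24, 4 to 8 genes lower with rosiglitazone beside 1112 to 1338 of all genes (1737 with all libraries), and 0 to 1 genes higher in the difference (1, Rpa1, without the second combination library) beside 19 to 26 lower. Same-numbered libraries of different groups deviated together by correlations of -0.106 to 0.100. Whether libraries with the same number shared an experiment cannot be told from these values. With a replicate block 2245, 5148, 5024, 1833, 8091 and 3396 genes were called in the 6 comparisons in the order above. Without it the counts were 2170, 5064, 4908, 1737, 8020 and 3265, and no count moved by over 1.5 times.

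Genes near 0 that were not called changed sign, and their ranges with 1 library at a time left out are given here. With the MEK inhibitor these were -0.14 to 0.15 for Pold1, -0.0075 to 0.28 for Gins2, -0.019 to 0.066 for Mcm6, -0.051 to 0.12 for Rfc3, -0.0082 to 0.13 for Rpa2, -0.021 to 0.24 for Cdc45, -0.0067 to 0.25 for Rfc5 and -0.039 to 0.098 for Rpa1. With the combination the range for Gins4 was -0.076 to 0.029. Rosiglitazone gave -0.092 to 0.11 for Ccne2, -0.13 to 0.017 for Gins4, -0.30 to 0.14 for Cdc45, -0.30 to 0.18 for Gins3, -0.11 to 0.15 for E2f1, -0.60 to 0.16 for Cdc6, -0.042 to 0.35 for Orc6 and -0.57 to 0.010 for Tk1. Between lines Pola2 ran from -0.16 to 0.083 and Ung from -0.17 to 0.045. The difference of effects ran from -0.10 to 0.16 for Pola1 and from -0.041 to 0.10 for Gins4. With library totals alone Pold1 stood at 0.032 with the MEK inhibitor and the difference for Pola1 at -0.0057. The cause of these changes was not tested.

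With 2 libraries a group, precision rests on few samples, and genes below about 10 CPM such as Gins1, Gins3 and Orc1 carry larger standard errors. Without a group that received BMP2 alone among the libraries here, the effect of BMP2 is read only on top of the MEK inhibitor. Any rosiglitazone in the combination medium could not be told apart from BMP2 in that reading.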
